A study of Homo sapiens with 6 samples.

Results

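The EGFR family was followed in SW839 cells, an established renal cell carcinoma (RCC) line, after knockdown of the E3 ubiquitin ligase RNF25. The 10 genes were chosen by symbol and comprised 3 receptors (EGFR, ERBB2 and ERBB3) and 7 ligands (AREG, EREG, HBEGF, TGFA, BTC, EPGN and NRG1), out of 30267 genes in the deposited table. All 10 had a row, and 9 were among the 16554 genes that passed the filter on low values, which required 3 or more libraries with a value of 10 or higher. Total RNA depleted of ribosomal RNA had been sequenced from 3 libraries with an RNF25 hairpin (shRNF25, a single hairpin name) and 3 libraries with the pLKO vector (shControl). According to the study's methods, cells carrying such hairpins were infected with lentivirus and selected with puromycin, controls included, and the sources used here do not say whether pools or clones were taken. The treatment text of all 6 samples names the RNF25 hairpin plasmid, so the groups rest on titles, genotype labels and library names.

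EGFR and its relatives are receptor tyrosine kinases that pair on the cell surface when a ligand binds and then signal through RAS, ERK, PI3K and AKT. EGFR binds AREG, EREG, HBEGF, TGFA, BTC, EPGN and EGF, whereas the neuregulins bind ERBB3 and ERBB4, ERBB2 has no known ligand of its own and ERBB3 has little kinase activity. The ligands are made as membrane-anchored precursors and are released by metalloproteases such as ADAM17. In the kidney the receptor is abundant on tubular epithelium, and RCC often carries much of it.

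Knockdown of RNF25 was accompanied by lower transcript levels of EGFR and of 3 of its ligands. HBEGF was 4.41-fold lower in shRNF25 than in shControl, EPGN 3.13-fold, AREG 2.24-fold and EGFR 2.06-fold, as ratios of the group means. ERBB2, ERBB3, TGFA, BTC and EREG did not pass the test, and NRG1 had too few reads to be compared. A gene was called changed when the adjusted p-value was below 0.05 and the fold change at least 1.5, the criteria of the study's methods. Of the 9 tested members, 4 were lower and 0 higher by these criteria, while 7.10% of all tested genes were called lower and 8.65% higher. The p-values came from limma on log2(normalized count + 1) with Benjamini-Hochberg adjustment over all tested genes, and every log2 fold change given here is shRNF25 minus shControl on that scale. In the same 4 members the values of the groups did not overlap, as was the case for 42.5% of all tested genes. For each of them an exact two-sided permutation of the 6 values gave p = 0.1, which no design of this size can go below.

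**Figure D1:**
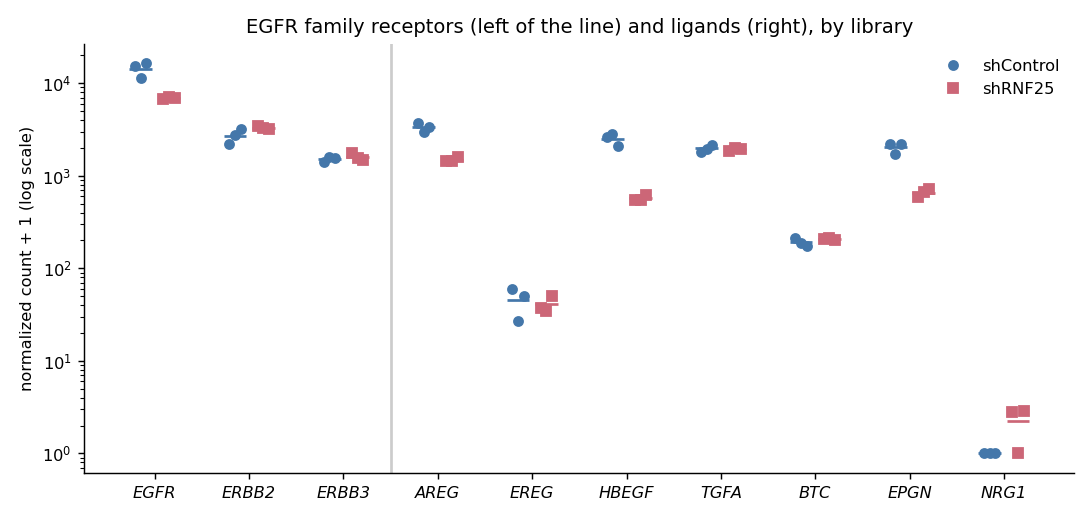
Normalized count + 1 on a log axis for each member, with 1 point for each of the 3 shControl (circles) and 3 shRNF25 (squares) libraries and a bar at the group mean. The 2 groups separate for EGFR, AREG, HBEGF and EPGN and overlap for the other members, and NRG1 has between 0 and 2 reads in each library.

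The promoters of the 4 genes that fell are shown because these genes moved in the same direction. RefSeq sequences on GRCh38.p14 were matched for 8 of the 10 members, and the 250 bases before the start site are printed 5′ to 3′ on the strand of the gene. Capitals mark a match to any of 3 motifs searched on both strands between 250 bases before and 50 bases after the start site, namely the cyclic AMP response element TGACGTCA, the AP-1 element TGANTCA and the NF-κB (κB) consensus. No search motif overlaps another in these windows. The AREG stretch lies at chr4:74444886-74445135 on the plus strand, EPGN at chr4:74308220-74308469 on the plus strand, HBEGF at chr5:140346604-140346853 on the minus strand and EGFR at chr7:55018767-55019016 on the plus strand.
AREG: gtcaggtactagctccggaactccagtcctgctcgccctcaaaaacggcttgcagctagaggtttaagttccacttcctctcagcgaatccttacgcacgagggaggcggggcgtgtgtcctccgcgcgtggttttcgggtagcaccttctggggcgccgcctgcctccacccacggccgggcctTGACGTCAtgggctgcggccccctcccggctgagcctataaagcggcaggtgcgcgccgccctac
EPGN: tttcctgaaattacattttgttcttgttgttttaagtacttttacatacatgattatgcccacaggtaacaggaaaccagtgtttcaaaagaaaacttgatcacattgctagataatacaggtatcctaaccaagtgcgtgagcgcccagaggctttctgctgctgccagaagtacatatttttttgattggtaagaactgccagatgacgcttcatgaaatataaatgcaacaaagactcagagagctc
HBEGF: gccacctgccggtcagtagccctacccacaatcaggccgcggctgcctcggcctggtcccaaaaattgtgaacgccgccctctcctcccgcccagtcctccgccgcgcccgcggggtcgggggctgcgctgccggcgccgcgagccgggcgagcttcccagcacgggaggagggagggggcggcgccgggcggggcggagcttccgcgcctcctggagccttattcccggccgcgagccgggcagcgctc
EGFR: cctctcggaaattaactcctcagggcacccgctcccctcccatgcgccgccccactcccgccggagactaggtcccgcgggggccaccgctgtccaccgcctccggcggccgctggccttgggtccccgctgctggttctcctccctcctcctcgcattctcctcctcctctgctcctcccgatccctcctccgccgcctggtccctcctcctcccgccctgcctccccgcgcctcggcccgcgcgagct
The AREG promoter held the element TGACGTCA, which reads the same on both strands, from position -65 relative to the start site. Among 35116 RefSeq promoters of the same length, 1.85% held this element, 7.71% the AP-1 element and 11.3% the κB consensus. These letters were not found in the windows of EPGN, HBEGF and EGFR. Of the matched members that did not pass the test, the ERBB2 window held an AP-1 match. TGFA held a κB match at -219 and BTC κB matches at -90 and -23. Exons of MIEN1 and PGAP3 overlap ERBB2 on the other strand, and the start that SW839 cells use for ERBB2 was not determined. A match is a description of the letters and was not tied to binding or to a response here.

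The libraries held 18647460 to 19943154 reads counted on genes, and the normalized counts are these reads divided by 1 scaling factor per library. RNF25 itself, the target of the hairpin, was at 694.2, 533.5 and 536.4 in shControl and at 214.1, 245.7 and 265.0 in shRNF25, so that the knockdown left 41.1% of the control mean. STK36, whose exons overlap RNF25 on the other strand, rose (log2 fold change 0.59, limma adjusted p = 0.0130). The shControl libraries differed more among themselves, with Pearson correlations across genes of 0.976 to 0.988, than the shRNF25 libraries (0.994 for every pair). The names of the control libraries also differ in form from each other. No batch is labelled, and if libraries of a group were prepared together, preparation and knockdown cannot be told apart. Of 10 markers of renal carcinoma lines 7 were tested, 0 were lower and 1 was higher, namely VIM, which rose from 355.4 ± 133.0 to 831.9 ± 43.4 (SD, n = 3 each). The epithelial markers KRT8, KRT18, CDH1 and EPCAM averaged between 5488 and 28459 in shControl and did not pass both criteria. CDH1 (log2 fold change -0.48, limma adjusted p = 0.0129) and EPCAM (-0.32) were lower in every shRNF25 library than in every shControl library. KRT8 (0.38, limma adjusted p = 0.111) was higher in every shRNF25 library, and 42.5% of all tested genes showed such separation. PAX8 averaged 127.4 in shControl and 94.0 in shRNF25. It was also lower in every shRNF25 library but did not pass (log2 fold change -0.45, limma adjusted p = 0.110). NDUFA4L2 averaged 24.4 in shControl, CA9 and CDH6 were below the filter and PAX2 had no row. The 9 listed markers of leukocytes, endothelium and fibroblasts summed to 1581 to 1952 in shControl and 1287 to 1577 in shRNF25, with CD3E, CD14 and DCN under 10 in every library. Most of the sum was COL1A1, listed for fibroblasts, at 1177 ± 84.5 in shControl and 913.6 ± 73.1 in shRNF25 (SD, n = 3 each). COL1A1 missed the 1.5-fold minimum (log2 fold change -0.37, limma adjusted p = 0.0479). Of 4 of the 9 markers tested, 1 was lower, CDH5, an endothelial cadherin that went from 124.7 ± 65.7 to 5.89 ± 2.34 (SD, n = 3 each) and passed the filter only through shControl. PECAM1, another endothelial marker, was at 400.3 ± 59.7 and 451.8 ± 84.7 (SD, n = 3 each) and did not pass (log2 fold change 0.17), and the endothelial receptor gene KDR, which is not on the marker list, rose (log2 fold change 1.78, limma adjusted p = 0.00116). Their part in the results was not tested, and in bulk RNA fewer cells of a kind and less RNA per cell cannot be told apart.

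Among the receptors, only EGFR passed the test. The GENCODE 29 annotation places it on the plus strand of chromosome 7 (GRCh38), between 55019021 and 55211628. Its normalized counts were 15215, 11406 and 16323 in shControl and 6718, 7142 and 6974 in shRNF25. Every shRNF25 library was thus below every shControl library, and the spread in shRNF25 (coefficient of variation 3.08%) was smaller than in shControl (18.0%). The group means were 14315 ± 2579 and 6945 ± 213.6 (SD, n = 3 each), a log2 fold change of -1.03 (SE 0.141, limma adjusted p = 0.00132), which left 48.5% of the control mean. The antisense transcript EGFR-AS1, whose exons overlap EGFR on the other strand, went from 31.0 ± 12.5 to 9.0 ± 2.40 (SD, n = 3 each). It was called lower (log2 fold change -1.64, limma adjusted p = 0.0105). EGFR-AS1 passed the filter only through shControl, however, and could hardly be called otherwise. Because the sources used here do not give the strand setting of the counting, reads of this pair cannot be told apart, but the antisense count was small beside that of EGFR.

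ERBB2, the preferred partner of the other receptors, lies on chromosome 17 from 39687914 to 39730426 on the plus strand. It was at 2195, 2725 and 3207 in shControl and at 3444, 3277 and 3175 in shRNF25. The 2 groups overlapped, since shControl replicate 3 exceeded the lowest shRNF25 library. The log2 fold change was 0.30 with a 95% interval from -0.02 to 0.62 (limma adjusted p = 0.161). Without shControl replicate 3 it was 0.43 and the adjusted p-value was 0.0385, still short of the 1.5-fold minimum. ERBB3, on chromosome 12 from 56076799 to 56103505 on the plus strand, was at 1409, 1599 and 1535 in shControl and 1745, 1552 and 1460 in shRNF25. These ranges lay over each other, and the log2 fold change of 0.06 had an interval from -0.19 to 0.32 (limma adjusted p = 0.719).

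The makeup of the receptor transcripts was described from levels per kb of exon, taken from GENCODE 29 exon lengths. These lengths join all annotated exons of a gene and can exceed the transcript that the cells make, so the shares depend on this choice. Divided by exon length, EGFR made up 76.7%, 67.4% and 73.1% of the summed EGFR, ERBB2, ERBB3 and ERBB4 level in the shControl libraries and 50.4%, 53.8% and 54.2% in the shRNF25 libraries. ERBB2 went from 16.8% ± 3.1 to 30.4% ± 0.8 and ERBB3 from 10.8% ± 2.0 to 16.7% ± 1.3 of that sum (SD, n = 3 each). The sum itself was 1574 ± 216.2 per kb in shControl and 1051 ± 20.3 per kb in shRNF25 (SD, n = 3 each). Within libraries, ratios between genes were taken as differences of log2(normalized count + 1), not divided by exon length, so that they compare groups and not levels. The ratio of EGFR to ERBB2 on this scale was 2.79, 2.07 and 2.35 in shControl and 0.96, 1.12 and 1.13 in shRNF25. The ratio of EGFR to ERBB3 moved in the same direction, from 3.22 ± 0.34 to 2.13 ± 0.17 (SD, n = 3 each). Neither ratio overlapped between the groups (two-sided exact permutation test, p = 0.1 for each, and 0.1 after adjustment over the 8 pairs of genes examined). All 8 pairs were chosen with the values known and gave this smallest possible p.

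**Figure D2:**
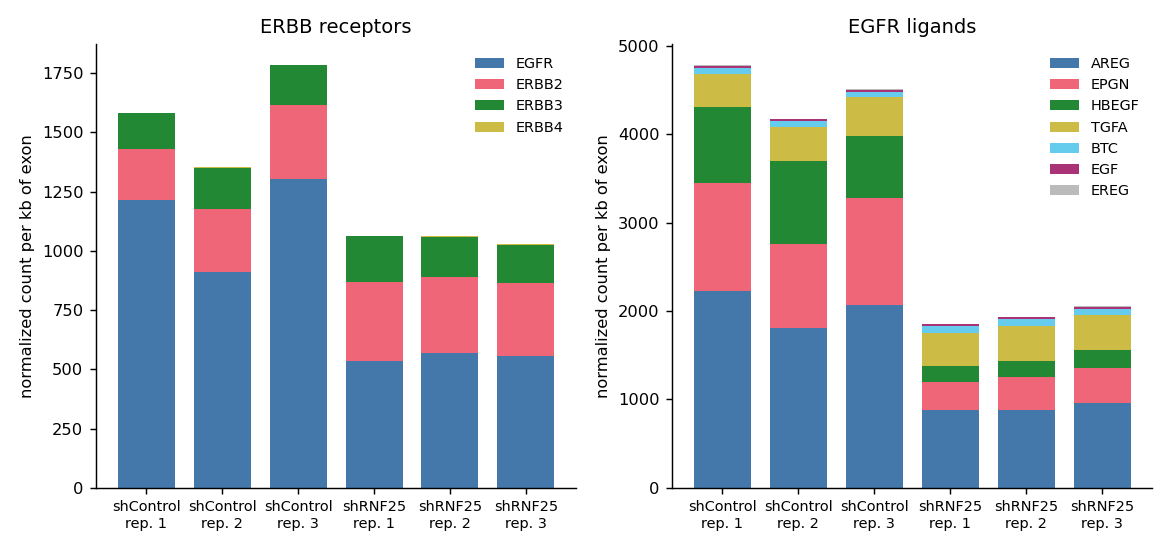
Stacked bars of normalized count per kb of exon for the 4 ERBB receptors (left) and the 7 EGFR ligands (right), with 1 bar for each library. EGFR, AREG, EPGN and HBEGF shrink in the 3 shRNF25 bars while the segments of ERBB2, ERBB3, TGFA and BTC keep a similar height.

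HBEGF, a heparin-binding ligand of EGFR and ERBB4, showed the largest fall among the members. It lies on chromosome 5 from 140332843 to 140346631 on the minus strand. Its normalized counts were 2618, 2835 and 2120 in shControl and 549.4, 552.3 and 613.9 in shRNF25. The lowest control library was more than 3 times the highest knockdown library. The means of 2524 ± 366.7 and 571.8 ± 36.4 (SD, n = 3 each) gave a log2 fold change of -2.13 (SE 0.131, limma adjusted p = 1.73e-05), and this fall ranked 110 among 16554 tested genes. EPGN (epigen), a ligand of EGFR with low affinity, was at 2214, 1724 and 2210 in shControl and 583.2, 671.4 and 712.0 in shRNF25. Its log2 fold change was -1.64 (SE 0.136, limma adjusted p = 0.000107), which left 32.0% of the control mean. AREG (amphiregulin), an EGFR ligand found in many epithelial tumors, was at 3671, 2975 and 3402 in shControl and 1450, 1447 and 1579 in shRNF25. For AREG as well every knockdown library was below every control library. The log2 fold change was -1.16 (SE 0.112, limma adjusted p = 0.000213), leaving 44.5% of the control mean.

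The other ligands were within the spread of the libraries. TGFA, an EGFR ligand long linked to loss of VHL in RCC, lies on chromosome 2 from 70447280 to 70554193 on the minus strand. It was at 1807, 1934 and 2174 in shControl and at 1845, 1992 and 1966 in shRNF25, with a log2 fold change of -0.02 (95% interval -0.27 to 0.22, limma adjusted p = 0.897). BTC (betacellulin) was at 210.0, 187.8 and 172.7 in shControl and at 204.1, 209.6 and 199.2 in shRNF25, with a log2 fold change of 0.11 (interval -0.20 to 0.41). Both intervals exclude a change of 1.5-fold in either direction. EREG (epiregulin) was low, with 25 to 53 reads in shControl and 36 to 52 in shRNF25, and its interval of -0.82 to 0.62 around a log2 fold change of -0.10 includes changes of that size. NRG1, the neuregulin of the list, had 0 reads in all 3 shControl libraries and 2, 0 and 2 reads in shRNF25, so no fold change was computed.

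**Figure D3:**
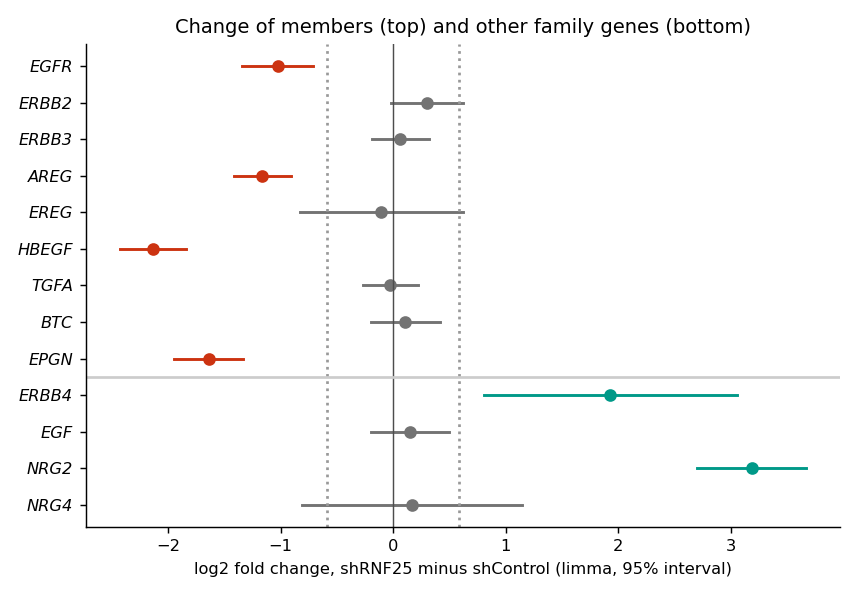
Log2 fold change (shRNF25 minus shControl, limma, 3 libraries a group) with its 95% interval for the 9 tested members and, under the line, 4 other genes of the family. Dotted lines mark a 1.5-fold change, and the intervals of EGFR, AREG, HBEGF and EPGN lie below the lower line while those of NRG2 and ERBB4 lie above the upper line. ERBB4 rests on few reads, passed the filter only through shRNF25 and could hardly be called otherwise.

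Levels of different genes were compared per kb of exon, with all annotated exons of a gene joined, and the order depends on this choice. In shControl the order was AREG at 2032 ± 212.9 per kb, EGFR at 1143 ± 206.0, EPGN at 1130 ± 155.5, HBEGF at 836.3 ± 121.5, TGFA at 397.3 ± 37.5, ERBB2 at 262.5 ± 49.0, ERBB3 at 167.5 ± 10.6, BTC at 67.5 ± 6.67 and EREG at 7.81 ± 2.98 (SD, n = 3 each). EGFR and EPGN overlapped, and all other neighbors in this order were separated in the 3 libraries. AREG ranked 328 in control level per kb among 15940 tested genes with a length. In shRNF25 AREG (905.4 ± 45.9 per kb) and EGFR (554.7 ± 17.1 per kb) kept the top places, TGFA (389.8 ± 15.8) and EPGN (361.4 ± 36.3) overlapped, as did EPGN and ERBB2 (319.6 ± 13.2), and HBEGF (189.5 ± 12.1) overlapped with ERBB3 (175.4 ± 16.1, SD, n = 3 each).

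The 7 EGFR ligands, EGF included, summed to 4785, 4178 and 4514 normalized counts per kb in shControl and to 1857, 1934 and 2057 in shRNF25. AREG contributed 45.2% ± 1.7 of this sum in shControl and 46.5% ± 1.0 in shRNF25 (SD, n = 3 each), nearly the same share of a smaller sum. HBEGF went from 18.7% ± 3.5 to 9.72% ± 0.23 and TGFA from 8.88% ± 1.11 to 20.01% ± 0.74 (SD, n = 3 each). TGFA thus supplied more of the ligand transcripts than HBEGF in each shRNF25 library and less in each shControl library. The log2 ratio of HBEGF to TGFA within libraries, not divided by length, was 0.53, 0.55 and -0.04 in shControl and -1.75, -1.85 and -1.68 in shRNF25.

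EPGN, EREG, AREG and BTC lie next to each other on chromosome 4, within 486.2 kb of GRCh38 (GENCODE 29). EPGN runs from 74308473 to 74315307, EREG from 74365143 to 74388751 and AREG from 74445134 to 74455009 on the plus strand, and BTC from 74744759 to 74794686 on the minus strand. EREG is thus flanked by the 2 genes that fell, 49.8 kb after EPGN and 56.4 kb before AREG. On the same undivided scale the log2 ratio of AREG to EREG was 6.27 ± 0.46 in shControl and 5.22 ± 0.22 in shRNF25, and that of EPGN to EREG was 5.56 ± 0.41 and 4.02 ± 0.24 (SD, n = 3 each). Against BTC the ratio went from 4.13 ± 0.16 to 2.86 ± 0.11 for AREG and from 3.42 ± 0.24 to 1.67 ± 0.16 for EPGN (SD, n = 3 each). Each of these ratios was lower in every shRNF25 library than in every shControl library, and each exact permutation p was 0.1. The pairs were chosen with the values known, so the ratios restate the falls of AREG and EPGN beside EREG and BTC.

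The genes around the cluster were read from the same table, a window chosen after the values were seen. Within 1 Mb before EPGN, 9 of 10 tested genes were called lower, namely RASSF6 and the chemokine genes CXCL8, CXCL6, CXCL1, PF4, PPBP, CXCL5, CXCL3 and CXCL2, against 7.10% of all tested genes. PF4 and PPBP passed the filter only through shControl and could hardly be called otherwise, and 7 of the 8 genes that passed it in both groups were lower. The exception was MTHFD2L, which lies between CXCL2 and EPGN and had a log2 fold change of -0.14 (limma adjusted p = 0.484). Within 1 Mb after BTC, 0 of 6 tested genes were lower and PARM1 was higher (log2 fold change 1.09, limma adjusted p = 0.00890). Some neighboring chemokine genes are close in sequence and may exchange reads in the counting, which was not measured.

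**Figure D4:**
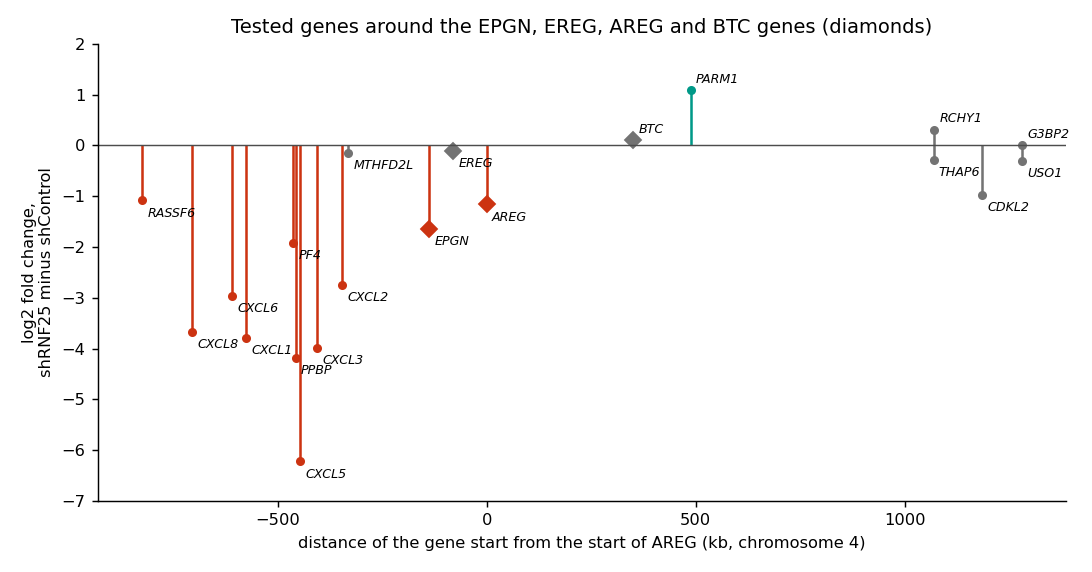
Log2 fold change (shRNF25 minus shControl) of each tested gene within 1 Mb of the EPGN to BTC stretch of chromosome 4, placed by the distance of its start from the start of AREG in kb. Red marks genes called lower, teal genes called higher and gray genes not called, and the diamonds show AREG and EPGN below 0 with EREG and BTC near 0. The value of PPBP rests on few reads and depends on the pseudocount.

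Of the family genes outside the 10 members, NRG2 moved most. NRG2, a neuregulin that binds ERBB3 and ERBB4, lies on chromosome 5 from 139846779 to 140043299 on the minus strand, 289.5 kb from HBEGF. Its normalized counts were 12.2, 15.4 and 19.4 in shControl, resting on 11, 15 and 18 reads, and 149.4, 150.5 and 143.9 in shRNF25. The mean was 9.45-fold higher in shRNF25, with a log2 fold change of 3.18 (SE 0.215, limma adjusted p = 3.19e-05), a change opposite in sign to that of HBEGF. Genes between NRG2 and HBEGF were not examined. ERBB4, the fourth receptor, had 1, 6 and 4 reads in shControl and 12, 21 and 18 reads in shRNF25. It passed the filter only through the shRNF25 libraries and could hardly be called otherwise. Its log2 fold change was 1.93 (SE 0.499, limma adjusted p = 0.0243). That call was lost after quantile normalization (adjusted p = 0.0608) and without shRNF25 replicate 1 (0.0562), 2 (0.101) or 3 (0.0957). EGF was at 130.3 ± 7.4 and 145.1 ± 17.2 (SD, n = 3 each) and did not pass (log2 fold change 0.15, limma adjusted p = 0.518), and neither did NRG4, with 6 to 19 reads a library. NRG3 had no row in the table. Per kb, NRG2 remained low in shRNF25 at 32.7 ± 0.8 (SD, n = 3), under every member except EREG and NRG1.

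The release of ligands was represented by 14 genes of sheddases and their regulators, of which 12 were tested, 4 were lower and 0 higher, against 7.10% lower and 8.65% higher among all tested genes. Their median log2 fold change was -0.28, against -0.01 for all tested genes. The 3 largest falls were those of ADAM12, a metalloprotease that can shed HBEGF, from 293.1 ± 50.7 to 106.2 ± 5.84 (SD, n = 3 each), ADAM8 (log2 fold change -0.87, limma adjusted p = 0.00468) and RHBDF2. RHBDF2 encodes iRhom2, the cofactor that brings ADAM17 to the surface, and went from 3254 ± 134.2 to 1840 ± 5.72 (SD, n = 3 each), a log2 fold change of -0.82 (limma adjusted p = 0.000532). The fourth, ADAM19, and ADAM17 are named after their values were seen. ADAM19 was at -0.64 on the log2 scale, and its call was lost without shControl replicate 3 (-0.50, under 1.5-fold) and without shRNF25 replicate 2 or 3 (limma adjusted p = 0.0568 and 0.0608). ADAM17, the main sheddase of AREG, HBEGF and TGFA, was at 1127 ± 81.1 and 938.6 ± 21.8 (SD, n = 3 each) without passing the test (log2 fold change -0.26, limma adjusted p = 0.110).

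Inhibitors of the receptors and genes of receptor turnover numbered 20, all tested, with 4 lower (7.10% of all tested genes) and 0 higher (8.65%) and a median log2 fold change of -0.11. ERRFI1 (MIG6), a feedback inhibitor that binds the EGFR kinase domain, fell from 8074 ± 1841 to 3260 ± 525.3 (SD, n = 3 each), a log2 fold change of -1.30 (limma adjusted p = 0.00125). CBLC, a ubiquitin ligase of the CBL family, was at -0.92 (limma adjusted p = 0.00115). PTPN12, a tyrosine phosphatase, was at 5773, 2774 and 2590 in shControl and 1814, 1775 and 1569 in shRNF25, with shControl replicate 1 far above the others. Its log2 fold change was -1.01 (limma adjusted p = 0.0249), or -0.64 without that library (adjusted p = 0.000544), and the call was lost without shRNF25 replicate 1, 2 or 3 (adjusted p = 0.0805, 0.0718 and 0.0951). The remaining call, SH3KBP1, an adaptor of CBL named after its value was seen, was at -0.59. That call was lost without shControl replicate 1 (-0.45, under 1.5-fold) and without shRNF25 replicate 1, 2 or 3 (limma adjusted p = 0.0728, 0.0537 and 0.0853). LRIG1, which promotes receptor degradation, was at 576.4 ± 74.0 and 545.6 ± 17.6 (SD, n = 3 each) and did not pass.

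The counts for the downstream genes stand beside 7.10% lower and 8.65% higher among all tested genes. Of 31 adaptors and kinases 28 were tested, and only CRK, an adaptor protein, passed both criteria, from 2190 ± 175.9 to 1339 ± 5.78 (SD, n = 3 each) with a log2 fold change of -0.71 (limma adjusted p = 0.00176). The median of that list was -0.09. Of the 10 transcripts that are commonly read as reporters of ERK activity, all 10 were tested, 0 were lower and 1 was higher, with a median log2 fold change of 0.11. The higher gene was SPRY4, a feedback inhibitor of RAS and ERK signaling, at 520.3 ± 85.4 in shControl and 2617 ± 120.2 in shRNF25 (SD, n = 3 each), a log2 fold change of 2.34 (SE 0.137, limma adjusted p = 1.67e-05). DUSP6, an ERK phosphatase named after its value was seen, was at 0.49 with an adjusted p-value of 0.0255 from limma and missed the 1.5-fold minimum. CCND1, DUSP4, ETV4, ETV5, EPHA2, EPHA4, PHLDA1 and SPRY2 did not pass the test. For 10 genes, 0 lower and 1 higher are close to the shares over all tested genes, and transcript levels do not measure kinase activity.

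**Figure D5:**
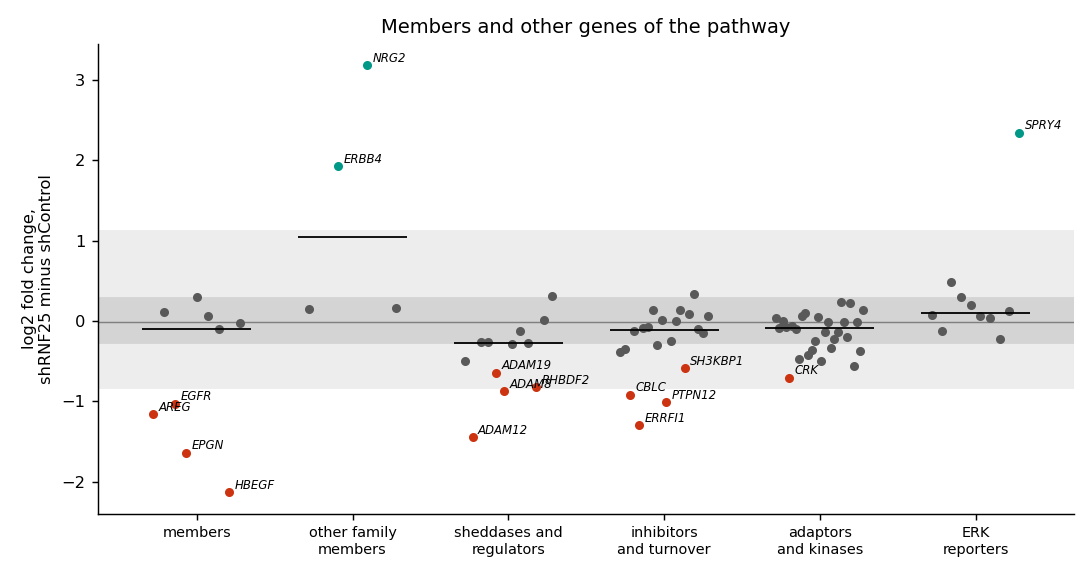
Log2 fold change (shRNF25 minus shControl) of each tested gene in the member list and 5 other lists of the pathway, with a black line at each list's median. The gray bands hold the central 50% and the central 90% of all tested genes, and the called genes named in red (lower) and teal (higher) lie mostly outside the wider band or at its edge.

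HBEGF, the called member with the largest change, was compared with every tested gene over the 6 libraries. The highest Pearson correlations on the log2 scale were those of CTSS (0.999), a lysosomal protease, DUSP10 (0.999), a phosphatase of stress-activated kinases, and CTC1 (0.998), a telomere maintenance factor. CTSS went from 73.0 ± 10.0 to 11.5 ± 0.80 and DUSP10 from 295.4 ± 12.8 to 163.8 ± 2.67 (SD, n = 3 each). The 6 points of each correlation fall into the 2 groups of libraries, and 75 genes had a correlation above 0.99.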

How the data were processed

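RNA-seq of SW839 cells was analysed, with 3 shRNF25 and 3 shControl libraries grouped by their titles. The submitters' processing notes name fastp, HISAT2, HTSeq and GRCh38, and the study's methods name stranded total RNA libraries and DESeq2. The annotation and the strand setting are not given in the sources used here. The authors deposited normalized counts, a signal formed by dividing the reads of each library by 1 factor (0.905 to 1.10). Whole reads were recovered for 100% of values (tolerance 0.01 reads), between 18647460 and 19943154 per library, and the factors equaled DESeq2 size factors. Counting error therefore adds to the spread between libraries for genes with few reads, and the floor was set at 3 reads per library.

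The filter (a value of 10 or more in 3 or more libraries) left 16554 genes, whose log2(normalized count + 1) entered limma 3.58.1 (lmFit, eBayes with trend, R 4.3.3) without covariates. The pipeline was tested on simulated data with the same spread in both groups. That test therefore does not cover the unequal spread of these libraries. The limma p-values measure the spread between these libraries, pooled over both groups and moderated across genes, although shControl spread more than shRNF25. They do not cover the spread between hairpins, since shRNF25 has a single hairpin name. The members and gene lists were chosen with earlier results of these data known. All members were named, with up to 3 called genes of each pathway list by size of change. Alternatives were pseudocounts of 5 and 0.5, no filter or a minimum of 50, quantile normalization, rescaling on genes averaging 100 or more, edgeR 4.0.16 and DESeq2 1.42.0 on recovered reads, a replicate block, library weights by group, each library left out and no minimum fold. Positions and exon lengths are those of GENCODE 29, matched by symbol, and a length joins all annotated exons of a gene.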

Additional observations from a re-analysis of the deposited data

How the results depend on the processing

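EGFR, AREG, HBEGF and EPGN were called lower, and no tested member was called higher, under all 17 alternatives. Their log2 fold changes lay between -1.18 and -0.81 for EGFR, -1.25 and -1.05 for AREG, -2.25 and -2.04 for HBEGF and -1.76 and -1.55 for EPGN, with a largest adjusted p of 0.0130. NRG2 also passed throughout (2.90 to 3.34). Some genes that did not pass changed sign, and the cause was not tested. TGFA was at 0.0732 after quantile normalization, 0.0419 after rescaling and 0.0041 with edgeR, and ran from -0.0847 to 0.0484 over the fits that left out 1 library. Over those fits ERBB3 ran from -0.0062 to 0.12 and EREG from -0.45 to 0.13. NRG4 was at -0.28 after quantile normalization and ran from -0.13 to 0.62. Of all genes, 1175 were lower and 1432 higher. Without a minimum fold 1785 were lower, and a minimum of 50 left 898 higher among 12755 tested, by construction. With 5 libraries the lower genes numbered 813 to 1269 and the higher genes 748 to 1725, and the lowest higher counts came without shRNF25 replicate 1 (748), 2 (824) or 3 (831). Genes higher in shRNF25 made up 54.9% of calls, 50.9% after quantile normalization and 62.6% after rescaling, but 47.6% with the minimum of 50 and 47.9% or 49.9% without shRNF25 replicate 1 or 2. With edgeR 1133 genes were lower and 1525 higher, with DESeq2 1220 and 1414. The replicate block gave 1193 lower and 1398 higher and changed no call of a member. Replicate numbers were shared between groups only as numbers, since same-numbered deviations correlated at -0.064, -0.087 and 0.047. Leaving out each library for the called genes of the other lists was added after seeing the data, and ADAM19, PTPN12 and SH3KBP1 lost their calls in some of these fits. ERBB4, EREG and NRG4 rest on few reads.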

Other observations

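Receptor tyrosine kinases outside the EGFR family were read from a list of 54 symbols written after other results had been seen. Of these, 52 had a row and 36 were tested, with 7 lower and 4 higher by the same criteria (7.10% and 8.65% of all tested genes) and a median log2 fold change of 0.09. The lower genes included ROS1 (log2 fold change -2.13), EPHB2 (-1.13), RYK (-0.72), INSR (-0.72), STYK1 (-0.68) and FGFR4 (-0.65). ROS1, an orphan receptor with wide spread between control libraries, went from 232.0 ± 101.5 to 49.5 ± 5.28 (SD, n = 3 each). The higher genes were EPHA5 (3.11), FLT1 (2.21), KDR (1.78) and EPHB1 (1.70). EPHA5, FLT1 and EPHB1 passed the filter only through shRNF25, FLT1 with 1 to 5 reads in shControl, and 1 of the lower genes only through shControl, so these calls could hardly have gone the other way. KDR, the main VEGF receptor of endothelium, went from 24.5 ± 6.48 to 84.5 ± 3.60, and EPHA5 from 10.1 ± 4.83 to 89.2 ± 5.20 (SD, n = 3 each). MET, the receptor of hepatocyte growth factor, was at 7348 ± 1660 and 7564 ± 98.97 (SD, n = 3 each) and did not pass (log2 fold change 0.07, limma adjusted p = 0.794). AXL, at 0.19 (limma adjusted p = 0.322), did not pass either.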
